A study of Drosophila melanogaster with 6 samples.

Results

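The genes described here encode proteins of the cytosolic and the mitochondrial ribosome of Drosophila melanogaster, measured as ratios between the cell lines SL2 and Kc167. Members were all genes whose single current symbol on the arrays begins as RpL, RpS, mRpL or mRpS followed by a number, or as RpLP, and whose clones had values on all 6 arrays. This gave 9 genes, 6 cytosolic and 3 mitochondrial, of 7201 features in all, of which 2216 were named genes. The current fly annotation holds 92 genes of the cytosolic name pattern and 73 of the mitochondrial one. The 9 are therefore a small sample of both ribosomes, and every gene of the pattern that the arrays list under a single symbol had complete values. A further 2 spots carried mRpL53 together with a second symbol and were not used.

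The cytosolic ribosome translates nuclear-encoded messages, and its proteins are made in amounts that match the ribosomal RNA. In flies, loss of a single copy of many of these genes gives the Minute phenotype of slow development and thin bristles. Several fly ribosomal proteins have a duplicate gene with restricted expression. The mitochondrial ribosome has its own nuclear-encoded proteins and translates the few messages of the mitochondrial genome, which encode subunits of the respiratory chain.

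Kc167 and SL2 are established lines derived from fly embryos, both untreated here and kept at 22 °C as dense cultures. The medium of Kc167 was Schneider's with 5% serum, and that of SL2 was CCM3, each with 20 µg/mL gentamicin, so that the line and its medium cannot be told apart. On each array of spotted cDNA clones, dye-labelled cDNA of both lines competed for the same spots. Kc167 carried Cy5 and SL2 Cy3 on 3 arrays, called unflipped, and the dyes were exchanged on 3 flipped arrays. The arrays with the same replicate number were averaged over the orientations, which gave n = 3. Whether the replicates came from separate cultures is not stated in the labels. The p-values therefore weigh a ratio only against the spread among these samples, in part pooled over all features. That spread may be technical variation.

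Values are log2 ratios of SL2 over Kc167. The base of the logarithm and the direction are not stated in the labels; both were taken as the likely ones, and with the other direction all signs would turn together. A ratio holds no level, so genes cannot be ranked by abundance and the presence of cell type markers in either line cannot be read. Each labelling took 80 µg of RNA, so a ratio compares shares of the RNA. It does not tell fewer expressing cells from less RNA per cell, and it says nothing of the number of ribosomes in a cell.

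One array stood apart from the others. Across features, the flipped array of replicate 1 had correlations of 0.638 to 0.873 with the other 5 arrays, which had 0.776 to 0.940 among themselves. It also gave 8 of the 9 members their highest value, the exception being mRpL54. Among all named genes, 23.9% had their highest value on this array, and among the named genes on the SL2 side 29.9% did. For the members, values without it are given beside the results. For the gene lists, they are given as counts or for some of the genes. These values come from the 5 remaining arrays with a term for the dye, a setting chosen after seeing the data.

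In the comparison of the lines, 7 of the 9 ribosomal protein genes were higher in SL2 and none was higher in Kc167. They were 4 of the 6 cytosolic and 3 of the 3 mitochondrial genes. By the same limma test with Benjamini-Hochberg adjustment over all features, 60.2% of the 7201 features differed at an adjusted p under 0.05, 28.4% with a higher value in SL2 and 31.8% with a higher value in Kc167. Among the named genes alone, 30.5% were higher in SL2 and 28.7% in Kc167. The median ratio was 0.43 over the cytosolic and 1.12 over the mitochondrial members, against 0.02 over all named genes and -0.02 over all features. On every one of the 6 arrays, 6 of the 9 members were above 0, as were 23.1% of all features and 25% of the named genes. Below 0 on every array were none of the members, 24.1% of all features and 24.9% of the named genes. With so few members, these shares and medians describe the measured genes and not either ribosome as a whole. Without the flipped array of replicate 1, the same numbers of genes, 4 and 3, passed on the SL2 side, and the medians were 0.36 and 1.07.

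Of the members, 3 had more than 2-fold ratios, RpS15Ab of the cytosolic and mRpL16 and mRpL54 of the mitochondrial ribosome. Of all named genes, 2.89% passed with a ratio of at least 1 and 3.43% with a ratio of -1 or lower. In the order of the 2216 named genes from the highest ratio down, RpS15Ab stood at position 32, mRpL16 at 35 and mRpL54 at 52. Ordered by the size of the ratio whatever its sign, which does not depend on the direction taken, they stood at 68, 76 and 112.

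**Figure D1:**
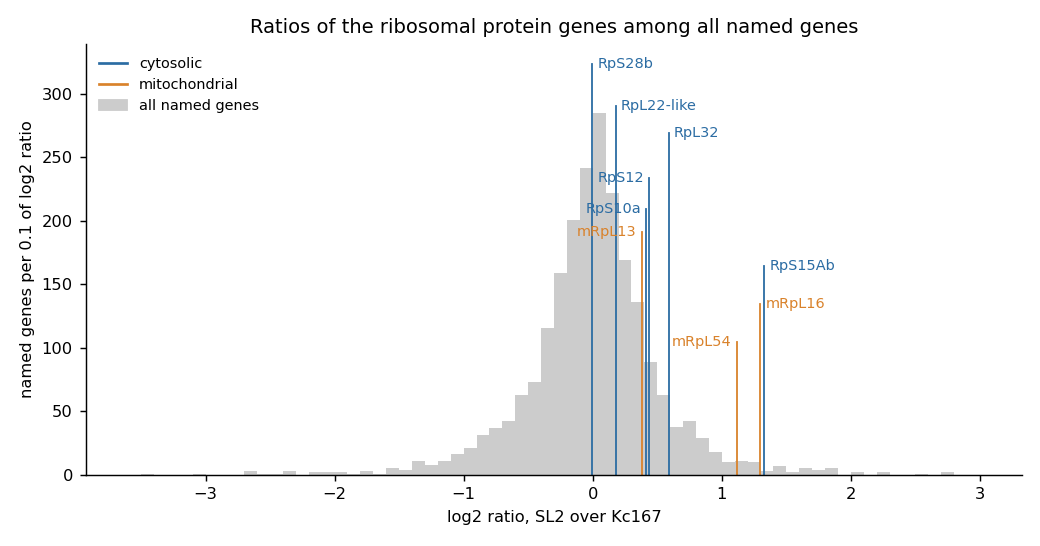
Histogram of the log2 ratio of SL2 over Kc167 for the 2216 named genes (grey, genes per 0.1 of log2 ratio), with a line at each cytosolic (blue) and mitochondrial (orange) ribosomal protein gene; line heights carry no value. RpS15Ab, mRpL16 and mRpL54 lie far out on the SL2 side, and RpS28b lies at the centre.

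RpS15Ab encodes a protein of the small cytosolic subunit and is the duplicate of RpS15Aa. Its log2 ratios were 1.11, 0.88 and 1.27 on the unflipped and 1.87, 1.28 and 1.58 on the flipped arrays. All 6 arrays gave an excess in SL2, and no flipped array was below an unflipped one. The mean was 1.33 ± 0.09 (SE, n = 3), or 2.52-fold (limma adjusted p = 9.7e-07). Its SD between replicates, 0.223, was larger than that of 91.9% of the named genes, whose median SD was 0.104. Without the flipped array of replicate 1, the ratio was 1.26.

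RpL32, also known as rp49, encodes a protein of the large subunit, and its message is widely used as a reference for fly RNA measurements. Averaged over its clones, it gave 0.68, 0.30 and 0.51 on the unflipped and 0.85, 0.61 and 0.59 on the flipped arrays. Every array was above 0, and the orientations overlapped. The mean was 0.59 ± 0.08 (SE, n = 3), a 1.50-fold excess in SL2 (limma adjusted p = 0.00010), and 0.55 without the flipped array of replicate 1.

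RpS12 encodes a small subunit protein that is known in flies for its part in cell competition between Minute and wild-type cells. Its ratios were 0.36, 0.13 and 0.45 on the unflipped and 0.75, 0.48 and 0.46 on the flipped arrays. All were positive, with each flipped array above each unflipped one by a margin that was small except on the flipped array of replicate 1. The mean was 0.44 ± 0.07 (SE, n = 3; limma adjusted p = 0.00052), and 0.39 without that array.

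RpS10a, a duplicate of the small subunit gene RpS10b, had ratios of 0.22, 0.59 and 0.26 on the unflipped and 0.82, 0.18 and 0.42 on the flipped arrays. The values were scattered, all above 0, with full overlap of the orientations. The mean of 0.41 ± 0.07 (SE, n = 3; limma adjusted p = 0.00052) was close to that of RpS12, and it was 0.33 without the flipped array of replicate 1. RpL32, RpS12 and RpS10a are neighbours in the order of ratios and had overlapping 95% intervals, of 0.42 to 0.76, 0.28 to 0.60 and 0.26 to 0.57. The SE and intervals of all members use a variance moderated by limma towards that of all features, with 7.57 prior and 2 residual degrees of freedom. For members with a large SD between replicates, they are narrower than those replicates alone would give. They do not cover the spread between clones of a gene.

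The other cytosolic members did not pass. RpL22-like, the relative of RpL22 that is known for its expression in the testis, had 0.00, 0.24 and -0.17 on the unflipped and 0.49, 0.35 and 0.16 on the flipped arrays. It was above 0 on all 3 flipped arrays and on both sides of 0 on the unflipped ones. The mean was 0.18 ± 0.08 (SE, n = 3; limma adjusted p = 0.067), with a 95% interval of 0.01 to 0.35 before adjustment. The ratio depended on the setting. With replicate 3 left out it was 0.27 (limma adjusted p = 0.026), and with the flipped arrays alone 0.33 (limma adjusted p = 0.020). With the unflipped arrays alone it was 0.02 (limma adjusted p = 0.86). It was 0.00 with the median of the 24 nearest clones by spot number removed (limma adjusted p = 0.98). Without the flipped array of replicate 1 it was 0.14 (limma adjusted p = 0.14).

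RpS28b, a small subunit gene with the relatives RpS28a and RpS28-like, had a mean of 0.00 ± 0.10 (SE, n = 3; limma adjusted p = 0.99). Its 95% interval ran from -0.22 to 0.22, and without the flipped array of replicate 1 the ratio was -0.12 (limma adjusted p = 0.17). That mean joined opposite values. The unflipped arrays gave -0.18, -0.54 and -0.27, and the flipped arrays gave 0.81, 0.15 and 0.02. Every unflipped array was thus on the Kc167 side and every flipped array on the SL2 side, with no overlap. The SD between replicates of RpS28b was 0.276, larger than that of 96.0% of the named genes. Its moderated SE and interval are narrower than this SD alone would give.

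**Figure D2:**
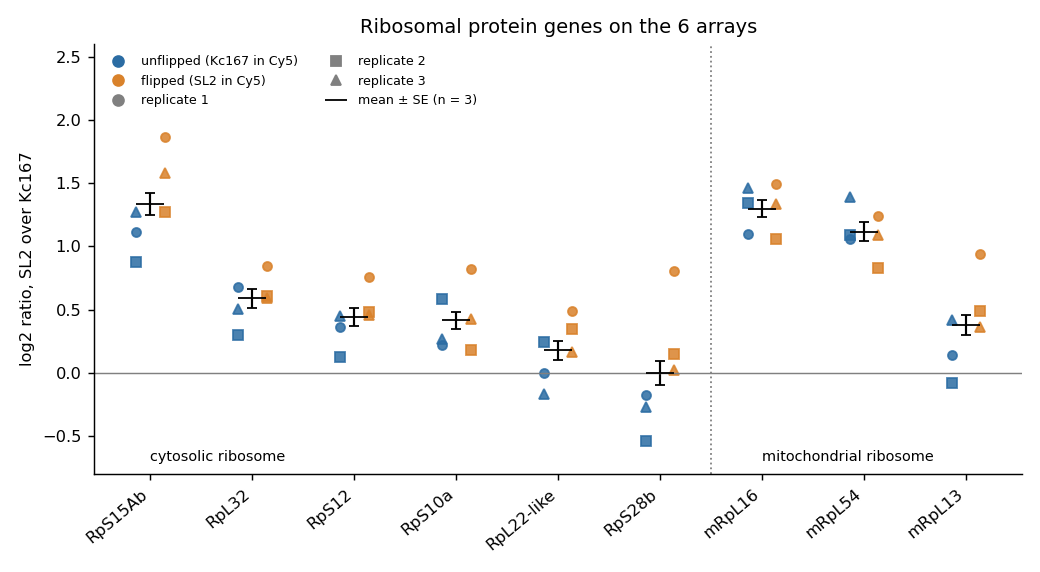
Log2 ratio of SL2 over Kc167 (y axis) of each ribosomal protein gene on the 3 unflipped (blue) and 3 flipped (orange) arrays, with the replicate number as symbol shape; black bars are the mean and the moderated SE over n = 3 replicates. The 3 genes with means above 1 are at 0.83 or higher on every array, and RpS28b lies below 0 on the unflipped and above 0 on the flipped arrays.

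All members of the mitochondrial ribosome belonged to its large subunit. mRpL16, whose bacterial counterpart lies near the catalytic centre of the ribosome, had ratios of 1.10, 1.34 and 1.46 on the unflipped and 1.50, 1.06 and 1.33 on the flipped arrays. The orientations covered the same range. The mean was 1.30 ± 0.07 (SE, n = 3), a 2.46-fold excess in SL2 (limma adjusted p = 2.5e-07), and 1.25 without the flipped array of replicate 1.

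mRpL54 encodes a protein that mitochondrial ribosomes have and bacterial ribosomes lack. Its ratios were 1.06, 1.09 and 1.39 on the unflipped and 1.24, 0.83 and 1.09 on the flipped arrays. Here, too, all arrays were high and the orientations overlapped. The mean was 1.12 ± 0.07 (SE, n = 3), or 2.17-fold (limma adjusted p = 1.1e-06), and 1.07 without that array. The 95% intervals of mRpL16, 1.14 to 1.45, and of mRpL54, 0.95 to 1.28, overlapped each other and that of RpS15Ab, 1.14 to 1.53.

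mRpL13, another protein with a bacterial counterpart, was lower. It had 0.14, -0.08 and 0.42 on the unflipped and 0.94, 0.49 and 0.36 on the flipped arrays. Only one array was below 0, and the flipped array of replicate 1 was far above the rest. The mean was 0.38 ± 0.08 (SE, n = 3; limma adjusted p = 0.0020). In the unflipped arrays alone the call was lost (0.16; limma adjusted p = 0.26), while the flipped arrays alone gave 0.60. Without the flipped array of replicate 1 the ratio was 0.29 (limma adjusted p = 0.011). The 95% interval of mRpL13, 0.21 to 0.55, lay below those of mRpL16 and mRpL54. Each of these 3 intervals rests on a single clone of its gene, so the spread between clones is not known, and the difference was not tested.

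RpL32 was the only member with several clones. The annotation gave it 9, of which 8 had values on all arrays, and these clones share a target and are not replicates. By limma on the table of 7581 single clones, 7 of the 8 passed on the SL2 side, where 28.6% of all clones passed. The remaining clone did not pass. With the flipped array of replicate 1 left out, 6 of the 8 passed. The ratios ran from 0.14 to 1.18 with a median of 0.55. The lowest belonged to the clone at spots 1463 and 1464, with 0.14 ± 0.09 (SE, n = 3; limma adjusted p = 0.19). The highest belonged to the clone at spots 9463 and 9464, with 1.18 ± 0.10, or 2.26-fold.

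By their means, the clones fell into a lower and an upper part of this range. The 4 lower ones had 0.14, 0.21, 0.35 and 0.35, and the 4 upper ones 0.75, 0.83, 0.92 and 1.18. These parts overlapped on some single arrays. On the flipped array of replicate 3, the upper clone at spots 1679 and 1680 had 0.37. The lower clone at spots 1391 and 1392 had 0.51 there. The highest clone gave 1.01, 0.76 and 1.13 on the unflipped and 1.97, 1.05 and 1.13 on the flipped arrays, and it was the highest of the 8 on 4 of the 6 arrays. The lowest clone gave 0.49, -0.36 and -0.06 on the unflipped and 0.25, 0.27 and 0.24 on the flipped arrays, and it was the lowest on 4 arrays.

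The dye orientation mattered for 1 of the 8, the clone at spots 14407 and 14408, with a difference of 0.75 (limma adjusted p = 0.027), as for 9.51% of all clones.

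The SD between the 8 clones was 0.379, against a median SD of 0.209 between the replicates of a clone. This spread is not part of the SE of 0.08 given for the gene. Among the 20 other named genes with at least 4 complete clones, the SD between clones had a median of 0.217 and ran from 0.090 to 0.615, and 2 of the 20 exceeded RpL32. Position in the order of spot numbers was checked by removing from each clone the median of its 24 nearest clones in that order. Slide coordinates were not used. The SD between the RpL32 clones was then 0.355, and the range 0.19 to 1.13. What distinguishes the clones, which the annotation lists without sequence accessions, was not tested.

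The ninth clone, at spots 4079 and 4080, had values on the flipped arrays only. They were -0.29, 0.43 and 1.04, a wider spread than any of the 8 other clones showed on those arrays. Its paired spots differed by up to 1.13 on the log2 scale, against a median gap of 0.144 between the spots of a clone on the arrays. It was left out of all values above.

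**Figure D3:**
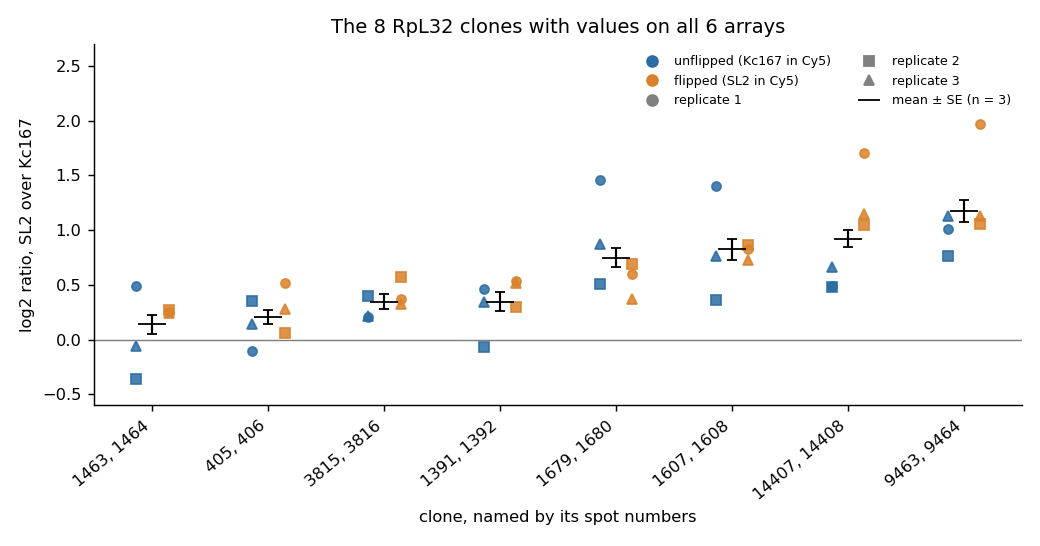
Log2 ratio of SL2 over Kc167 (y axis) of the 8 complete RpL32 clones in order of their mean, on the unflipped (blue) and flipped (orange) arrays; black bars are the mean and moderated SE over n = 3 replicates. The means rise from 0.14 to 1.18, with a step between 0.35 and 0.75.

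Of the 9 members, 1 differed between the dye orientations by limma on the differences within same-numbered arrays, as did 9.46% of all features, so this share is near the background. The member was RpS28b. It had -0.33 in the unflipped and 0.32 in the flipped mean, a difference of 0.65 ± 0.16 (SE, n = 3; limma adjusted p = 0.037). The call depends on the pairing and on single arrays. With the arrays taken as unpaired groups the adjusted p was 0.054 by limma, and without the flipped array of replicate 1 the difference was 0.41 (limma adjusted p = 0.12).

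Flipped minus unflipped, the difference was positive for 7 members and -0.13 for mRpL54, while mRpL16 had a mean of 1.30 in both orientations. The largest differences after RpS28b were 0.49 for RpS15Ab (limma adjusted p = 0.063) and 0.44 for mRpL13 (limma adjusted p = 0.14). RpL22-like had 0.31 and RpS12 0.25. Without the flipped array of replicate 1, RpS15Ab had 0.34, mRpL13 0.27, RpL22-like 0.23 and RpS12 0.16. Without replicate 3, mRpL13 had 0.68 (limma adjusted p = 0.013) and RpS15Ab 0.58 (limma adjusted p = 0.041). The median size of the difference was 0.25 over the members and 0.19 over all named genes.

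**Figure D4:**
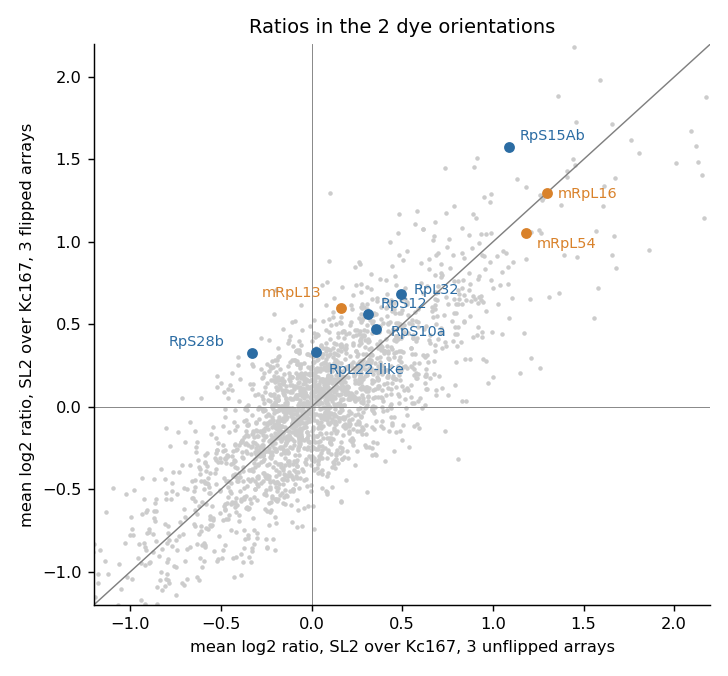
Mean log2 ratio of SL2 over Kc167 on the 3 unflipped (x axis) and the 3 flipped arrays (y axis) for the named genes (grey) and the cytosolic (blue) and mitochondrial (orange) ribosomal protein genes; the axes show the part around the members, so some named genes lie outside, and the diagonal marks equal values. mRpL16 lies on the diagonal, and RpS28b, at -0.33 and 0.32, lies farthest from it among the members.

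A cDNA spot can bind the message of a close relative. By their names, 4 members have such a relative: RpS15Ab, RpS10a, RpL22-like and RpS28b. None of the relatives themselves, RpS15Aa, RpS10b, RpS28a, RpS28-like and RpL22, was on the arrays under a name. The values of these 4 members are therefore uncertain as to the gene of origin, and binding of relatives was not tested. They had a median ratio of 0.30, with 2 of the 4 on the SL2 side. The other 5 members, RpL32, RpS12, mRpL16, mRpL54 and mRpL13, had a median of 0.59 and all 5 were on the SL2 side. Of all features, 28.4% were on that side. The 4 include RpS15Ab, which had the highest ratio of all members, and the 5 include all mitochondrial members. A difference between the 4 and the 5 was not tested.

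The members were spread over the genome, with 3 on chromosome arm 2R, 2 each on 3R and X, and 1 each on 2L and 3L. mRpL16, among the highest, and RpS28b, the lowest, were both on the X chromosome, whose 368 named genes had a median of -0.05. The nearest measured named genes on either side of each member were divided between the lines. Of these 18 neighbours, 7 were higher in SL2, 7 were higher in Kc167 and 4 did not pass, with a median of -0.06. The shares over all features were 28.4% higher in SL2 and 31.8% higher in Kc167. Between a member and its neighbour lay 0 to 17 other protein-coding genes.

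Over the 6 arrays, the named genes closest to the mean of the cytosolic members were CG8635, mgr, which encodes a subunit of the prefoldin chaperone, and CG9920. Their root mean square differences from that mean were 0.063, 0.092 and 0.099 on the log2 scale, and their ratios were 0.45, 0.46 and 0.42. Closest to the mean of the mitochondrial members were CG3402, Sou and slow, with differences of 0.104, 0.117 and 0.124 and ratios of 0.96, 0.92 and 0.86. They were drawn from 2207 named genes, all arrays measured the same pair of lines, and the measure says nothing beyond similar values.

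Genes that act in making ribosomes went both ways. Of 60 listed genes of ribosome assembly and rRNA synthesis, 9 were measured under a name, and 7 were higher in SL2 and 2 in Kc167, with a median of 0.26 against 0.02 over all named genes. Over the named genes 30.5% were higher in SL2 and 28.7% in Kc167. The counts of this list were 6 and 2 without the flipped array of replicate 1. Nop60B, which encodes the pseudouridine synthase of snoRNPs, had 1.21 ± 0.07 (SE, n = 3), with 1.03, 0.78 and 0.92 on the unflipped and 1.60, 1.43 and 1.49 on the flipped arrays. All of its flipped arrays lay above the unflipped ones, a difference of 0.60 (limma adjusted p = 0.028). eIF6, which encodes a factor that keeps the large subunit from joining the small one too early, had 0.77 ± 0.08, and Nnp-1 had 0.60 ± 0.07. TAF1C-like had -1.29 ± 0.07, and all of its arrays were on the Kc167 side.

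Genes that regulate ribosome production likewise stood on both sides. Of 37 listed genes around Tor, S6 kinase and Myc, 11 were measured, of which 7 were higher in Kc167, 2 were higher in SL2 and 2 did not pass, with a median of -0.41. The background here is 31.8% of all features higher in Kc167 and 28.4% higher in SL2, with 60.2% passing in either direction. On the 5 arrays without the flipped one of replicate 1, 7 genes passed as higher in Kc167 and 2 as higher in SL2. The 2 on the SL2 side were Max and Tif-IA with all arrays, and mio and Tif-IA on these 5. There, Max had 0.13 (limma adjusted p = 0.15) and mio 0.18 (limma adjusted p = 0.028). Lst8, which encodes a subunit of the Tor complexes, had -0.94 ± 0.07 (SE, n = 3; limma adjusted p = 1.8e-06). Among the genes that restrain Tor, Tsc1 had -0.83 ± 0.09, and Iml1 and Nprl3, which encode subunits of the GATOR1 complex, had -0.64 ± 0.07 and -0.57 ± 0.07. Tsc1 was scattered, with -0.30, -0.25 and -1.35 on the unflipped and -1.30, -1.02 and -0.78 on the flipped arrays. Its SE rests on averages of same-numbered arrays and does not show this scatter in full. Without the flipped array of replicate 1, Tsc1 had -0.77 ± 0.15. Tif-IA, which encodes an initiation factor of RNA polymerase I and stands in both lists, had 0.34 ± 0.08. The other genes higher in Kc167 were S6kII with -0.48 ± 0.07, foxo with -0.41 ± 0.07 and Nprl2 with -0.29 ± 0.07. The Kc167 side therefore holds Lst8, a subunit of the Tor complexes, and also Tsc1, Iml1 and Nprl3, which restrain Tor. What this means for the activity of the pathway was not tested.

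**Figure D5:**
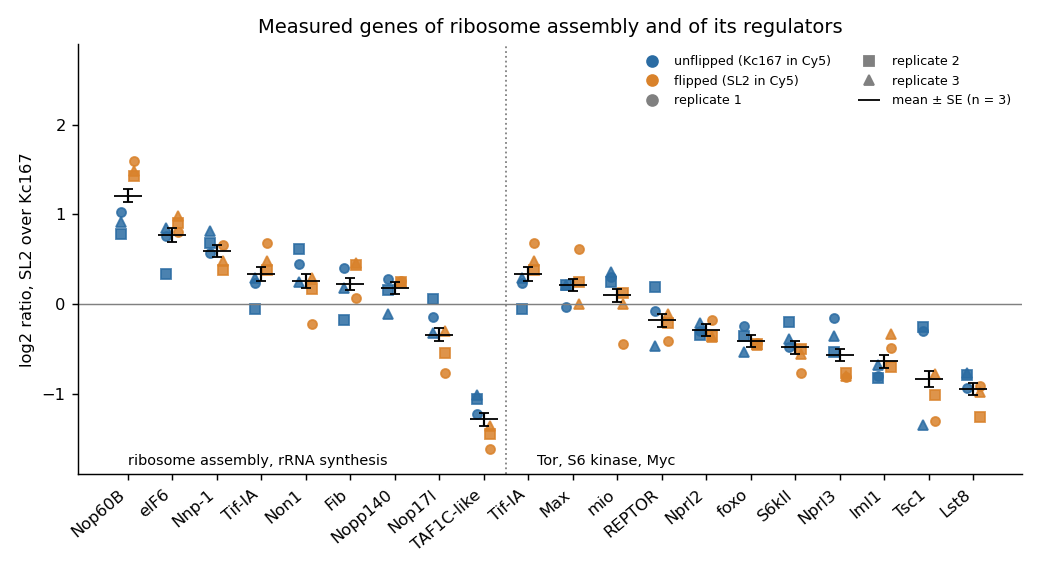
Log2 ratio of SL2 over Kc167 (y axis) of the measured genes of ribosome assembly and rRNA synthesis (left) and of the Tor, S6 kinase and Myc list (right) on the unflipped (blue) and flipped (orange) arrays; black bars are the mean and moderated SE over n = 3 replicates, and Tif-IA stands in both lists. On the left 7 of 9 genes passed with a higher value in SL2, and on the right 7 of 11 with a higher value in Kc167.

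Few other genes of translation were measured under a name. None of 6 ribosomal protein genes with other names and 1 of 14 elongation and termination factors was, namely eRF1, the peptide release factor gene, with 0.27 ± 0.06 (SE, n = 3; limma adjusted p = 0.0047). Without the flipped array of replicate 1, eRF1 had 0.32. Of 33 mitochondrial translation factors, GatA (-0.17 ± 0.08) and bsf (-0.12 ± 0.12) were measured and did not pass. bsf had -1.08 on the flipped array of replicate 1 and -0.14 to 0.37 on the others, and without that array its ratio was 0.05 and that of GatA -0.14, neither passing.

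Some genes typical of particular cell types also differed between the lines, and their part in the results above was not tested. Of 22 listed hemocyte genes, 5 were measured, of which 2 were higher in SL2 and 3 in Kc167, with a median of -0.43. Of 10 neuron and glia genes, 4 were measured, of which 2 were higher in SL2 and 1 in Kc167. Of 16 fat body, muscle and disc genes, 6 were measured, of which 1 was higher in SL2 and none in Kc167. These counts for the 3 lists were the same without the flipped array of replicate 1. For comparison, 28.4% of all features were higher in SL2 and 31.8% in Kc167.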

How the data were processed

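Scanning used a ScanArray 4000 and quantification used QuantArray version 3 without background subtraction, per the labels. The authors derived the deposited ratios from normalised data, per the labels, and the values were used here as log2 ratios as the authors deposited them. The sources used here give neither the normalisation method nor the log base or direction, and no intensities were used. Arrays had values for 15104 to 16844 of 16896 spots; their number limits the precision. Neighbouring spots of a clone were averaged (r = 0.97 across clones), then the clones of a gene. Symbols came from the platform annotation, whose 5666 single-symbol spots all matched RefSeq by Entrez identifier. Gene order and arms came from the assembly Release 6 plus ISO1 MT. Features needed values on all 6 arrays.

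After averaging same-numbered arrays over the dye orientations, limma 3.58.1 (R 4.3.3; lmFit, eBayes) gave a two-sided test of the mean (n = 3) against 0. P-values were adjusted by Benjamini-Hochberg over 7201 features, with a threshold of 0.05, and SE is the moderated standard error. The limma fit alone was tested on simulated replicate values, drawn independently of each other. That simulation did not cover the averaging of spots, clones and arrays or the dye orientation. Named were all members and their clones, and the 3 genes closest to the mean of each class. In the lists of translation and ribosome production, up to 4 called genes per list with the largest ratios of either sign were named. Tif-IA, GatA, bsf, Max, mio, S6kII, foxo and Nprl2 were named after their values were seen. No single gene of the cell type lists was named. Members, lists and rules were chosen with earlier results of these data known. Alternatives covered the dye and replicate terms, each orientation, centring, scaling, quantile normalisation, the clone summary and incomplete features. Further ones covered the variance model, limited ratios, position in the order of spot numbers, the log base and each replicate.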

Additional observations from a re-analysis of the deposited data

Results flagged for a closer look

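The ratio of RpS28b differed between the dye orientations by limma on the differences within same-numbered arrays (flipped minus unflipped 0.65 on the log2 scale; adjusted p = 0.037). The flipped arrays were higher in all 3 numbers. The mean between the lines, 0.00, is the average of -0.33 on the unflipped and 0.32 on the flipped arrays.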

How the results depend on the processing

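The ratios of RpS15Ab, mRpL16 and mRpL54 passed in SL2's favour under all 17 alternatives, and those of RpL32, RpS12 and RpS10a under 16 of 17. The exception was the fit without variance pooling, which rests on 2 residual degrees of freedom. It left 1 cytosolic gene and 2 RpL32 clones on the SL2 side, and 938 and 988 of all features on the SL2 and Kc167 sides. With the unflipped arrays alone, RpS28b passed on the Kc167 side, the 1 cytosolic gene to do so. Its ratio was 0.32 with the flipped arrays alone, 0.0065 after centring, 0.011 after scaling, and -0.16 to 0.094 without single replicates. mRpL13 passed under 15 of 17 alternatives, and RpL22-like under 3. Read as natural logarithms, the 2.52-fold of RpS15Ab would be 3.79-fold.

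Same-numbered arrays did not deviate together (correlations -0.07, 0.11 and -0.10), so the numbers are not shown to pair the arrays. With the replicate block and a dye term, 4 cytosolic and 3 mitochondrial genes passed, and 6 of the 8 RpL32 clones. For the dye orientation, 0 members passed with no replicate block, 2 after scaling and 2 after quantile normalisation, and 0 to 3 without single replicates or the array that stood apart (1 to 994 of all features). The orientation difference of mRpL16 was 0.11 after scaling and 0.11 after quantile normalisation, and -0.20 to 0.13 without single replicates; that of RpS10a ran from -0.13 to 0.38. The causes were not tested. Signal over background is unknown here, so dim spots were not filtered.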
